A study of Saccharomyces cerevisiae with 4 samples.

Results

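The genes of the yeast secretory pathway that carry SEC names, together with the exocyst genes EXO70 and EXO84, were followed in Saccharomyces cerevisiae cells exposed to Congo red. The set was chosen by gene name alone: every spot whose annotated symbol was SEC plus a number, or EXO70 or EXO84. This gave 76 of 12800 spots, 2 for each of 38 genes, among the 5539 genes named on the array. Treated cells grew for 2 h with 30 µg/ml Congo red, a dye that binds wall polysaccharides, and the untreated cells were the other part of the same divided culture. Both were of strain BY4741, in rich medium at 24 °C. BY4741, an a-type haploid used in many laboratories, carries deletions of nutritional marker genes, in treated and untreated cells alike. RNA of both was hybridised together on 4 two-colour microarrays, numbered 1 to 4. Channel 2 held the treated RNA on arrays 1 and 3, and channel 1 held it on arrays 2 and 4. Nothing in the labels tells separate cultures from repeats of 1 culture, so p-values and errors cover the spread between these arrays alone, which may be technical.

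Secretory proteins enter the endoplasmic reticulum (ER) through a membrane channel, leave it in vesicles coated by COPII, pass the Golgi, and reach the growing bud in vesicles that the exocyst tethers to the plasma membrane. COPI-coated vesicles carry material back from the Golgi to the ER. SEC genes were named for yeast mutants that fail to secrete, and they cover nearly every step of this route, which also brings the proteins and enzymes of the cell wall to the surface.

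Values are given as log2 ratios, centred on the median of each array and taken as Congo red over untreated, so that 1 is a doubling. The direction is likely, not certain, because the labels name no dye and no ratio. Arrays of opposite channel assignment had a mean Pearson correlation of -0.04 over all genes tested, and arrays of equal assignment one of 0.20. The sign was read from 8 marker genes of cell wall stress, of which 7 were tested. Every one of the 7 had a positive value on arrays 1, 2, 3 and 4, with means from 1.37 for CRH1 to 3.04 for NCW2, and they set the direction rather than support it. A ratio holds no level, so the labelled strain could not be checked by its markers, and the levels of different genes cannot be compared. Between 11609 and 12586 spots had a value on an array. Of the 38 genes, 34 had a value on all 4 arrays and 4 on 3 arrays, and all 38 were among the 5489 genes tested. The number of arrays limits the precision.

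Transcripts of the secretory genes stayed near the middle of the array. Their median log2 ratio was -0.01 over 38 genes, with 0.0063 to 0.045 when each array was left out, and that of all genes tested was -0.01 too. In the mean 18 genes were above 0 and 20 below. The mean lay within 0.25 of 0 for 30 of the 38 genes, or 78.9%, as it did for 56.8% of all genes tested. On arrays 1 to 4 the median of the secretory genes was 0.05, 0.08, -0.03 and 0.09, with 19 of 35, 23 of 37, 18 of 38 and 25 of 38 genes above 0. The array medians of all genes tested were 0.02, -0.02, 0.01 and 0.01.

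None of the 38 genes passed the threshold in the limma test against 0 (adjusted p under 0.05 over all genes tested), which 0.0911% of all genes passed upward and 0% downward. The smallest limma adjusted p among them was 0.26. Of the 7 cell wall stress markers tested, 2 passed this threshold. CRH1, with a mean of 1.37, and PIR3, with 1.73, had limma adjusted p of 0.18 and 0.49. Not passing therefore does not show that a transcript was unchanged. At an unadjusted limma p under 0.05 there was 1 secretory gene, SEC28, above 0 and none below, where 5.37% of all genes tested lay above and 2.37% below. Without array 2 that count was 4 (SEC28, SEC24, SEC10 and SEC9, with 8.74% of all genes), and without array 4 it was 3 (SEC28, SEC39 and SEC6, with 8.04%), still with no gene past the adjusted threshold. In these fits SEC9 rested on arrays 3 and 4 alone, SEC39 on arrays 2 and 3, and SEC6 on arrays 1 and 3. Of the 34 genes with 4 values, SEC28, SEC21 and SEC72 were above 0 on every array, 3 genes where the share over all genes was 9.54%, and SEC8 alone was below 0 on every array, where that share was 8.65%. The limma 95% intervals of 37 genes held 0. For 31 of the 38 genes, or 81.6%, the interval lay wholly between -1 and 1, so a change of 2-fold or more in the mean was outside it. The same held for 67.8% of all genes tested. The other 7 intervals reached past 1 or -1, so that a 2-fold difference in the mean lay within them.

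**Figure D1:**
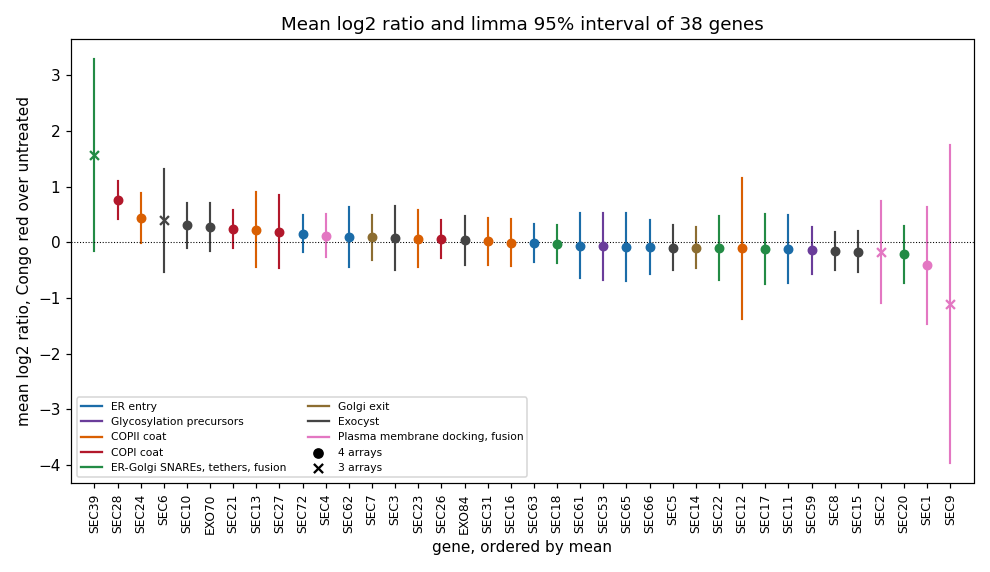
Mean log2 ratio (Congo red over untreated, vertical axis) of the 38 genes, ordered by mean and coloured by role, with limma 95% intervals as lines. Circles are genes with values on 4 arrays and crosses those with 3. SEC28 is the only gene whose interval, 0.43 to 1.11, lies off 0, and the widest intervals belong to SEC9, SEC39 and SEC12.

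Components of ER entry had a median of -0.06 over 7 genes, with 2 above 0 and 5 below, and none at an unadjusted p under 0.05. The sign of this median depended on single arrays: it was 0.045 without array 1, 0.0087 without array 3 and -0.12 without array 4, and 0.068 with centring along the spot order. SEC61, the pore of the translocation channel, was at -0.36, -0.13, -0.38 and 0.65 on arrays 1 to 4, with a mean of -0.06 ± 0.23 (SE, n = 4). Its single positive value was on array 4. SEC62 and SEC63, which help the channel take up finished proteins, had means of 0.10 ± 0.21 and -0.01 ± 0.13 (SE, n = 4 each). SEC66 and SEC72 belong to the same complex. SEC66 was at -0.48, 0.26, -0.30 and 0.18, below 0 on arrays 1 and 3 and above 0 on the others. SEC72 was at 0.20, 0.04, 0.21 and 0.16, above 0 on every array and with the smallest spread of the 38 genes (mean 0.15 ± 0.13, SE, n = 4, limma adjusted p = 0.76). Its value on array 2 averaged spots at 0.21 and -0.13. SEC65, a subunit of the signal recognition particle, was at -0.61, 0.60, -0.36 and 0.04. SEC11, the catalytic subunit of signal peptidase, was at -0.62, 0.01, -0.43 and 0.55. SEC65 and SEC11, like SEC66, were lower on arrays 1 and 3 than on arrays 2 and 4.

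Precursor genes of glycosylation had means just below 0. SEC53, the phosphomannomutase that feeds the route to GDP-mannose, was at -0.59, 0.17, -0.39 and 0.52, with a mean of -0.07 ± 0.23 (SE, n = 4). SEC59, the dolichol kinase, was at 0.20, -0.48, -0.11 and -0.19, with a mean of -0.14 ± 0.17. In these spot averages, the arrays high for one gene were thus low for the other. The SEC59 spots disagreed in sign, at -0.67 and 0.45 on array 3 and 0.21 and -0.58 on array 4.

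COPII coat genes had a median of 0.04 over 6 genes, with 4 above 0. It ran from -0.010 without array 1 to 0.16 without array 3. SEC24, the coat subunit that binds cargo, was at 0.64, -0.03, 0.56 and 0.59, close together on arrays 1, 3 and 4 and at about 0 on array 2. Its mean was 0.44 ± 0.17 (SE, n = 4), or 1.35-fold, with a limma adjusted p of 0.64. Without array 2 the mean was 0.59 at an unadjusted p of 0.012, and the limma adjusted p was 0.48. SEC23, the partner of Sec24 in the inner coat, was at 0.26, -0.34, 0.51 and -0.16 (mean 0.07 ± 0.20). The outer cage is built from Sec13 and Sec31, and their genes ran differently over the arrays. SEC13 was at -0.35, 0.54, -0.16 and 0.89, with a mean of 0.23 ± 0.26, higher on arrays 2 and 4. SEC31 was at 0.27, -0.37, 0.17 and -0.01, with a mean of 0.02 ± 0.17, higher on arrays 1 and 3. Sec13 also serves in the nuclear pore. SEC16, the scaffold of ER exit sites, had a mean of -0.01 ± 0.17. SEC12, which activates the GTPase that starts coat assembly, scattered over 0.25, 1.34, -1.59 and -0.43, with 1 of its 2 spots blank on arrays 2 and 3 and a mean of -0.11 ± 0.49.

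The 4 COPI coat genes with SEC names were above 0 in the mean, as 48.0% of all genes tested were. The coat has 7 subunits, and of the others COP1 was at 0.20, RET3 at 0.17 and RET2 at -0.012, so that 6 of 7 were above 0. The median of the SEC-named genes was 0.22, and it ran from 0.12 without array 1 to 0.36 without array 2. With the sign of arrays 2 and 4 turned, as if the ratios ran by channel, it was 0.043. SEC28, the epsilon subunit, was at 0.61, 0.83, 0.84 and 0.79 on arrays 1 to 4. The 4 values lay close together under both channel assignments, with means of 0.73 in arrays 1 and 3 and 0.81 in arrays 2 and 4. Its 8 spot values ran from 0.58 to 1.01. The mean was 0.77 ± 0.13 (SE, n = 4), or 1.70-fold, which ranked 375 from the top of 5489 genes. Its unadjusted limma p was 0.0021, and the limma adjusted p was 0.26, so it did not pass. SEC21, the gamma subunit, was above 0 on all arrays at 0.42, 0.17, 0.20 and 0.21, with a mean of 0.25 ± 0.13 and a limma adjusted p of 0.70. SEC27, the beta-prime subunit, was at 0.69, -0.53, 0.61 and 0.01, and SEC26, the beta subunit, at 0.10, 0.17, 0.08 and -0.10. The means of SEC27 and SEC26 were 0.20 ± 0.25 and 0.06 ± 0.13 (SE, n = 4 each). Subunits of 1 coat therefore had different values, and the list as a whole is described by SEC28 and 3 smaller ratios whose intervals held 0.

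**Figure D2:**
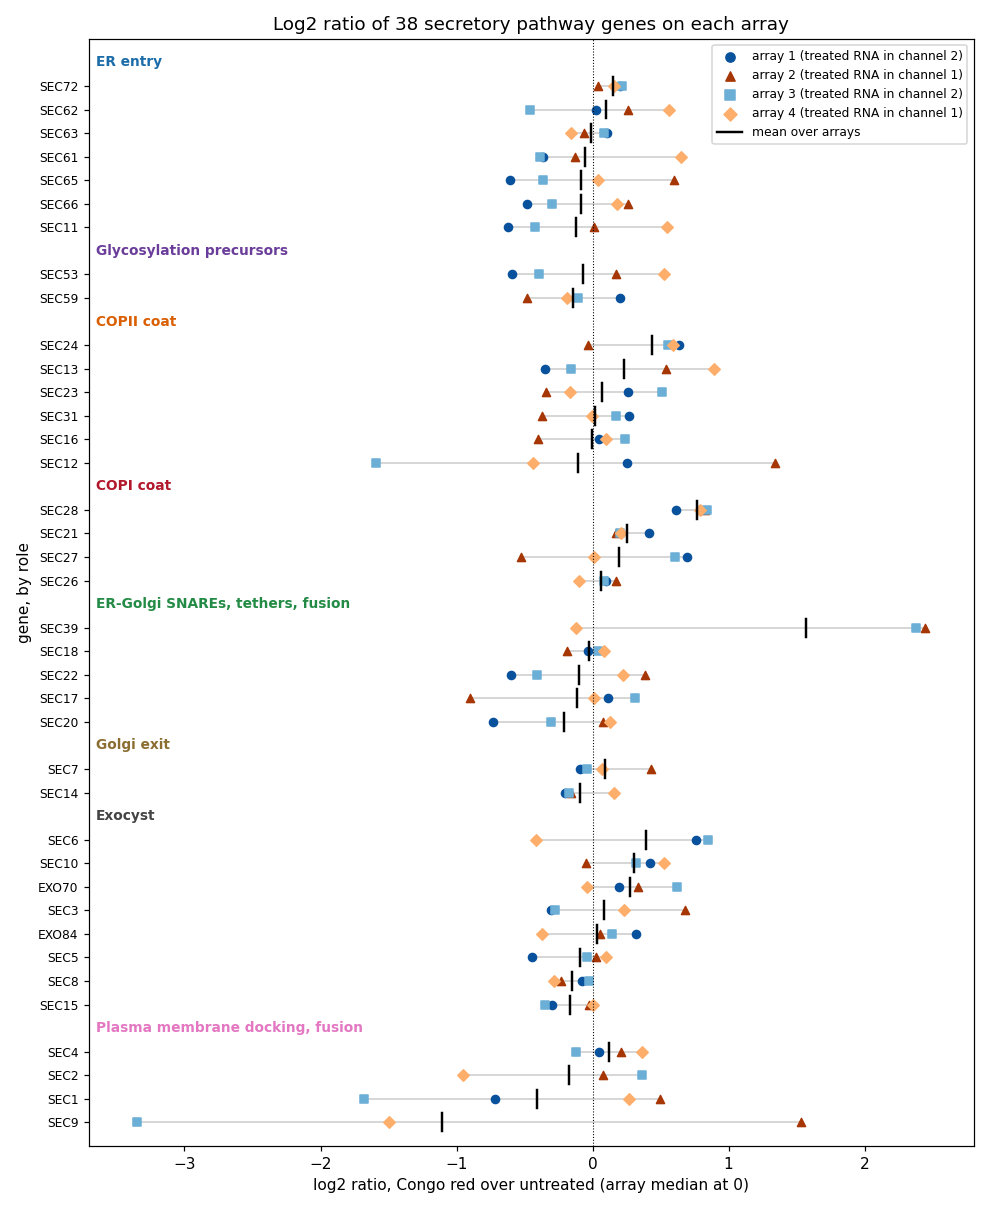
Log2 ratio (Congo red over untreated, array median at 0, horizontal axis) of each gene on each array, grouped by role. Points are arrays, blue for treated RNA in channel 2 and orange for channel 1, and black ticks are means. SEC28 is tight between 0.61 and 0.84, while SEC9 spans -3.35, from 1 spot, to 1.53.

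Genes of ER-Golgi membrane fusion and tethering had a median of -0.10 over 5 genes, with 1 above 0. It was -0.024 without array 1 and 0.029 without array 2, so its sign rested on array 2. SEC18, the ATPase that takes SNARE complexes apart, stayed between -0.19 and 0.08 (mean -0.03 ± 0.13, SE, n = 4). Its cofactor gene SEC17 was at 0.11, -0.90, 0.31 and 0.01, apart on array 2. The SNARE genes SEC22 and SEC20 were both below 0 on arrays 1 and 3, at -0.60 and -0.41 for SEC22 and -0.73 and -0.31 for SEC20. On arrays 2 and 4 the spot averages of both were above 0, at 0.38 and 0.22 for SEC22 and 0.08 and 0.12 for SEC20. Their spots differed in sign on array 2, at 0.87 and -0.11 for SEC22 and -0.17 and 0.32 for SEC20. On array 4 the SEC22 spots were at 0.44 and 0.004. SEC39, of the tether that receives vesicles at the ER, had the highest mean of the 38 genes at 1.57 ± 0.62 (SE, n = 3, limma adjusted p = 0.65), and this value rests largely on 1 spot. The mean was 2.41 without array 4 and 0.017 with the sign of arrays 2 and 4 turned. That spot was at 4.50 on array 2 and 3.55 on array 3, while the other spot of the gene was at 0.39, 1.20 and -0.12 on arrays 2, 3 and 4, with a mean of 0.49 taken alone. Without gene values whose spots differed by more than 1, SEC39 kept a value on array 4 alone and was not tested. Golgi exit is represented by SEC7, which activates Arf GTPases, at 0.09 ± 0.15, and SEC14, a phosphatidylinositol transfer protein, at -0.09 ± 0.14 (SE, n = 4 each).

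The exocyst, the complex of 8 subunits that tethers vesicles at the bud, had a median of 0.06, with 5 genes above 0 and 3 below. None of them had an unadjusted p under 0.05. The array medians were 0.06, 0.03, 0.06 and -0.02, and the overall median ran from -0.044 without array 2 to 0.12 without array 1. SEC10 was at 0.42, -0.05, 0.32 and 0.53, with a mean of 0.31 ± 0.16 (SE, n = 4, limma adjusted p = 0.70). EXO70, which binds membrane lipids, was at 0.20, 0.34, 0.62 and -0.04, with a mean of 0.28 ± 0.17. Its spots did not match closely, at 0.55 and -0.15 on array 1 and 0.78 and -0.11 on array 2. SEC6 was at 0.76 and 0.85 on arrays 1 and 3 but at -0.42 on array 4, with no value on array 2 and 1 spot blank on array 3. SEC3, the other subunit that binds the membrane, was at -0.30, 0.68, -0.28 and 0.23. EXO84 was at 0.32, 0.06, 0.14 and -0.37 and SEC5 at -0.44, 0.03, -0.04 and 0.10. SEC8 was below 0 on all 4 arrays at -0.08, -0.23, -0.02 and -0.28, with a mean of -0.15 ± 0.13. Its value on array 3 averaged spots at 0.12 and -0.17. SEC15, the subunit that binds the Rab protein Sec4, was at -0.30, -0.03, -0.35 and 0.00, with a mean of -0.17 ± 0.14.

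Docking and fusion genes of the plasma membrane had the lowest median of the role groups, -0.29 over 4 genes, but this place depended on the processing. The median was 0.015 without array 3 and -0.50 without array 2. On single spots it was 0.061, without gene values whose spots lay more than 1 apart 0.012, and over genes valued on 4 arrays -0.14. With turned signs it was -0.47. SEC4, the Rab GTPase of secretory vesicles, was at 0.05, 0.21, -0.12 and 0.36, with a mean of 0.12 ± 0.15 (SE, n = 4). SEC2, which activates Sec4, was at 0.08, 0.36 and -0.96 on arrays 2 to 4. SEC1, which binds the assembled fusion complex, was at -0.72, 0.49, -1.68 and 0.27, and its mean of -0.41 ± 0.41 includes spots at -3.37 and 0.02 on array 3. SEC9, a plasma membrane SNARE, was at 1.53, -3.35 and -1.50 on arrays 2 to 4, with 1 spot blank on array 3. Its mean of -1.11 ± 1.02 (SE, n = 3, limma adjusted p = 0.78) was the lowest of the 38 genes and had the widest interval, from -3.95 to 1.74. The direction of SEC9 was set by which arrays were used: its mean was -2.42 without array 2 and 0.02 without array 3. The low median of this group thus rests on genes whose arrays disagreed.

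Spots of a secretory gene usually matched. Of 143 spot pairs with both values, 5 lay more than 1 log2 unit apart, or 3.50%, against 10.5% of the pairs of all genes. These were SEC39 on arrays 2 and 3, SEC1 and SEC59 on array 3 and SEC2 on array 4. The median gap between spots was 0.11, 0.16, 0.10 and 0.09 on arrays 1 to 4. The median SD of a gene over arrays was 0.34, beside 0.42 for all genes tested.

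**Figure D3:**
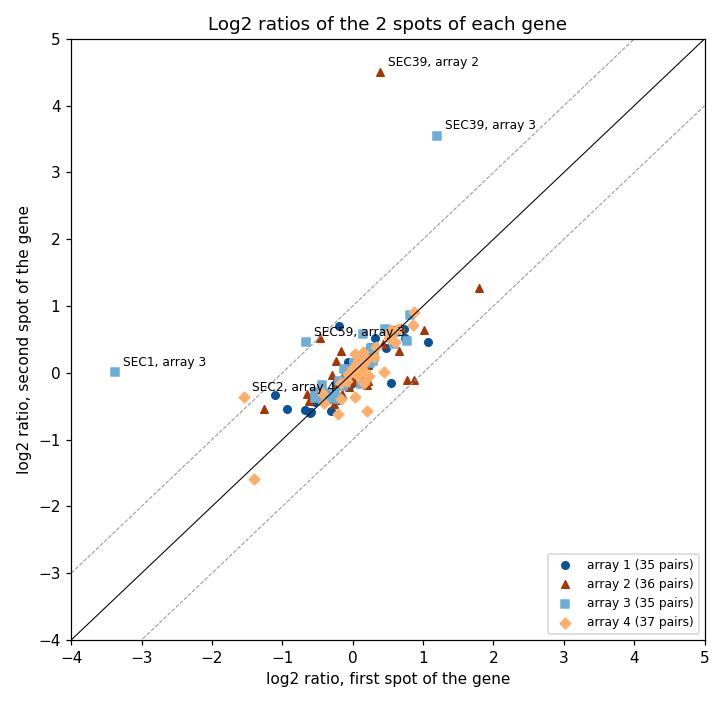
Log2 ratio of the first spot (horizontal axis) against the second (vertical axis) of each gene on each array. The solid line marks equal values and dashed lines a gap of 1. The 5 pairs outside the dashed lines are named, with SEC39 at 0.39 and 4.50 on array 2.

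Values of the secretory genes were closer between arrays of equal channel assignment, as were those of all genes tested. Over the 34 secretory genes with 4 values, arrays 1 and 3 had a Pearson correlation of 0.63 and arrays 2 and 4 one of 0.18. The 4 pairings of opposite assignment ran from -0.48 to 0.07. Over all genes tested, the correlation was 0.32 for arrays 1 and 3 and 0.08 for arrays 2 and 4. There the pairings of opposite assignment ran from -0.06 to -0.02. These are descriptions over genes that share arrays, not over independent samples. In 16 of the 34 genes both values of arrays 1 and 3 lay below both of arrays 2 and 4, and in 9 genes they lay above, where the shares over all genes were 29.5% below and 28.2% above. With a channel term in the limma model, arrays 1 and 3 minus arrays 2 and 4, no secretory gene passed, and 0% of all genes did. The smallest limma adjusted p among the secretory genes was 0.24. At an unadjusted p under 0.05 there were 8 of 34 secretory genes, beside 17.6% of all genes.

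By role, ER entry lay lower on arrays 1 and 3, with a median difference of -0.63 over 7 genes, 5 of them wholly below their values on arrays 2 and 4. In values averaged over spots, SEC72 and SEC63 ran the other way, wholly above by 0.11 and 0.21 in the mean. The ER entry medians were -0.36 on array 1 and -0.36 on array 3, beside 0.04 on array 2 and 0.18 on array 4. The COPII medians had the opposite order, at 0.26 on array 1 and 0.21 on array 3, beside -0.19 on array 2 and 0.04 on array 4, and a median difference of 0.31. Of the 6 COPII genes 2, SEC23 and SEC31, lay wholly above and 1, SEC13, wholly below. SEC12 and SEC13 had differences below 0. For SEC12 it was -1.12 ± 0.95 (SE, n = 4), and its arrays overlapped. SEC13 was at -0.97 ± 0.24 (SE, n = 4) for arrays 1 and 3 minus arrays 2 and 4, with a limma adjusted p of 0.24 for the channel term. SEC27 was at 0.91 ± 0.27 and SEC1 at -1.58 ± 0.41 in the same difference, with limma adjusted p of 0.26 and 0.24. The difference for SEC28 was -0.08 ± 0.21. The cause of this split was not tested, nor was any difference between role groups.

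**Figure D4:**
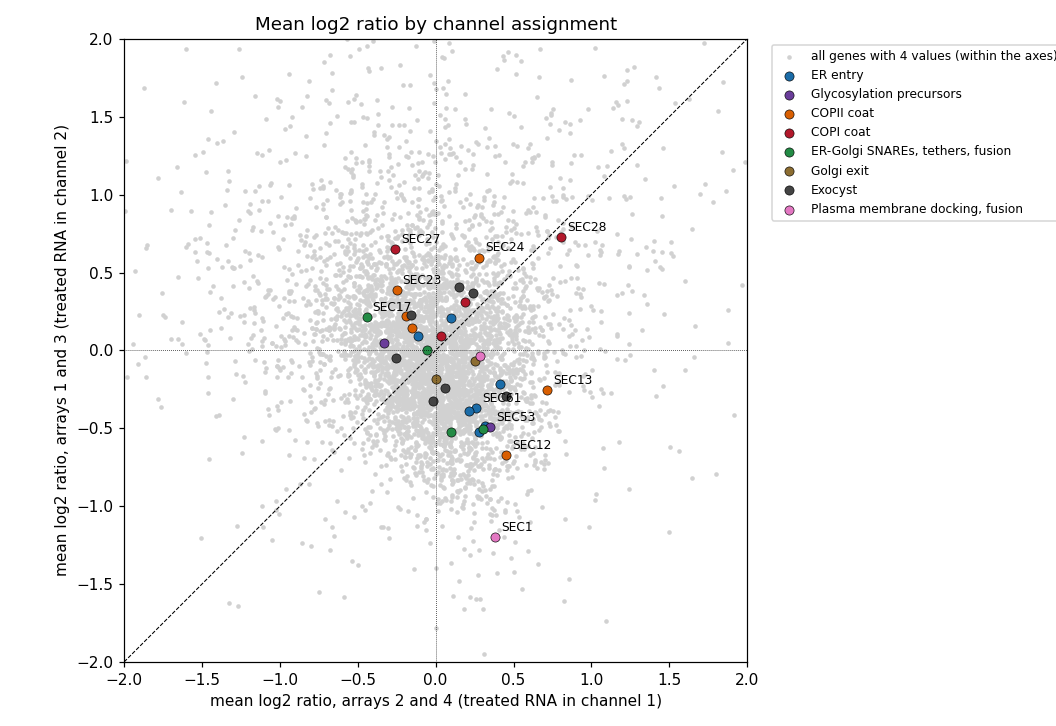
Mean log2 ratio in arrays 1 and 3 (vertical axis, treated RNA in channel 2) against arrays 2 and 4 (horizontal axis, treated RNA in channel 1) for the 34 genes with 4 values, coloured by role, over all genes with 4 values in grey. The dashed line marks equal values. SEC28 lies near it at 0.73 and 0.81, and 5 of the 7 ER entry genes lie below it.

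Other genes of the pathway did not pass the threshold either. Of 77 listed partner genes 76 had spots and were tested, with a median of 0.02, 39 above 0 and 37 below, and 0 were called by limma. Tethers of the TRAPP complexes and related factors had the highest median, 0.33 over 13 genes with 10 above 0, but 0.0864 without array 3, 0.17 without array 4 and 0.22 without array 1. Among them BET5, a core TRAPP subunit, was at 1.36, 0.54, 1.01 and 0.59, above 0 on all arrays (mean 0.87 ± 0.20, SE, n = 4, limma adjusted p = 0.40), and TRS65, another TRAPP subunit, at 0.78 ± 0.20 (0.52). In the COPI and Arf list the median was 0.01 over 11 genes. ERD2, the receptor that returns ER proteins from the Golgi, was at 0.58, 0.63, 0.31 and 0.58, a mean of 0.52 ± 0.14 (limma adjusted p = 0.53), and ARF2, an Arf GTPase, at 0.29 ± 0.17.

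The COPII partners and cargo receptors had a median of 0.06 over 11 genes, which ran from -0.12 without array 4 to 0.21 without array 1. SVP26, also called ERV26, an adaptor that takes membrane proteins into COPII vesicles, was at -2.59, -1.75 and -2.86 on arrays 1 to 3 and had no value on array 4. Its mean of -2.40 ± 0.29 (SE, n = 3) ranked 2 from the bottom of all genes tested, with a limma adjusted p of 0.21. With turned signs the mean was -1.23, which ranked 34 from the bottom, with a limma adjusted p of 0.61. Without array 3 it was -2.17 and ranked 10. Its spots lay apart, at -2.35 and -1.16 on array 2 and farther on array 1, with 1 spot valued on array 3. SFB2, a relative of SEC24, was at 0.34 ± 0.14 (SE, n = 4), above 0 on all arrays. ER entry partners had a median of -0.08 over 16 genes, with the gene of the signal recognition particle receptor's beta subunit at -0.75 ± 0.27 and SPC1, of signal peptidase, at 0.75 ± 0.29. Other SNAREs had a median of 0.11 over 13 genes, but -0.045 without array 4, 0.020 without array 2 and 0.0018 on single spots. They included SLY1, which assists ER-Golgi fusion, at 0.24 ± 0.14 and GOS1, a Golgi SNARE, at -0.52 ± 0.34. GOS1 was at -1.68 on array 2 but at -0.44, -0.01 and 0.07 on arrays 1, 3 and 4. Rab proteins and exocytosis regulators had a median of -0.04 over 12 genes, with MSO1, which binds Sec1, at -0.35 ± 0.13 and MYO2, the motor that carries secretory vesicles, at 0.30 ± 0.15. At an unadjusted p under 0.05 there were 4 of 76 partners above 0 and 3 below, where the shares over all genes were 5.37% and 2.37%.

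**Figure D5:**
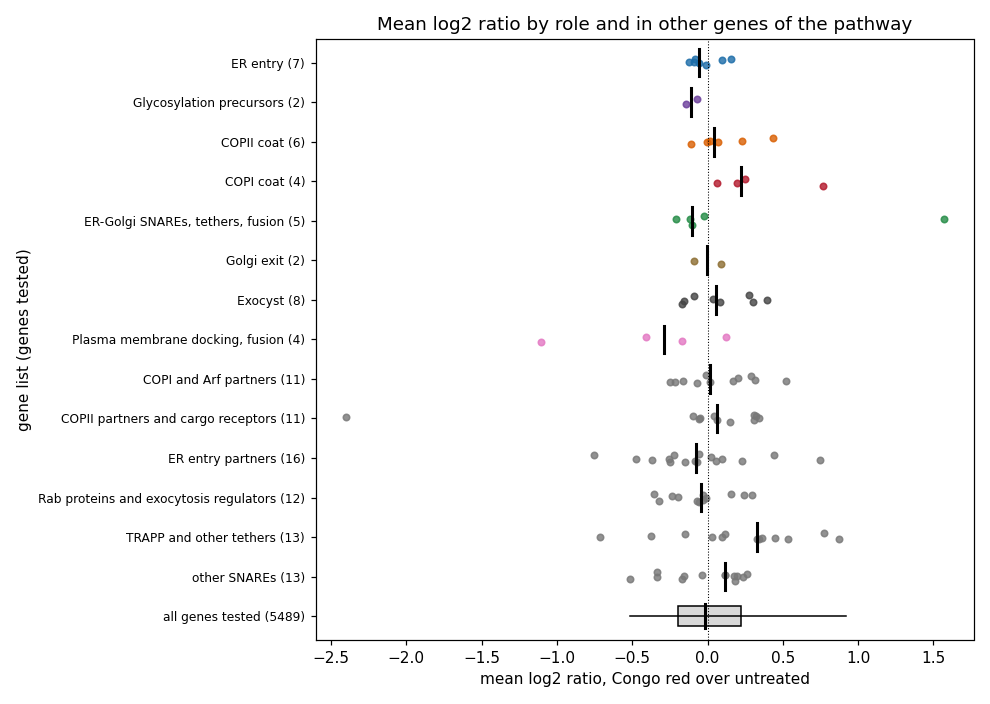
Mean log2 ratio (Congo red over untreated, horizontal axis) of each tested gene by role group in colour and by partner list in grey, with list medians as black ticks. The bottom row shows all 5489 genes tested as a box from the first to the third quartile with lines out to 5% and 95% of the genes. The COPI coat median is 0.22 and the TRAPP and other tethers median 0.33, and SVP26 is the lone partner at -2.40.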

How the data were processed

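Each deposited value is the log2 ratio of a spot, a unit read from the values themselves, which are signed and reach a ratio of 100000. Per the labels, each array holds RNA of Congo red-treated and untreated cells. For dyes, ratio direction, background correction and normalization by the authors the entry is "not given in the sources used here". Spots took their gene names from GEO's old platform annotation, which gave 1 symbol for 11138 spots, and all 38 members matched RefSeq by gene number. After centring on the array median, spot values of 1 gene were averaged per array. limma 3.58.1 (R 4.3.3) was run on every gene valued on 3 or more arrays (lmFit and eBayes, mean ratio against 0, two-sided, Benjamini-Hochberg over all genes, threshold 0.05). SE is limma's moderated standard error. A second limma model added a channel term, on genes with 4 values. The code was tested on simulated data. The text names all members, the 2 genes of each partner list with the smallest unadjusted p, and the markers. COP1, RET2 and RET3 are named besides, to complete the COPI coat. Members were taken by name, but the name rule, the lists and the markers were set with earlier results of these data known. Alternatives covered centring, scaling, filters, single spots, arrays averaged in pairs, the variance model, the ratio sign and each array left out. With an array left out, genes valued on 2 or more of the remaining arrays were tested. A planned motif search was not run, since no promoter sequence was used here.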

Additional observations from a re-analysis of the deposited data

Results flagged for a closer look

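Of 34 secretory genes with 4 values, 3 had an array far from the other 3 by Dixon's criterion. Chance flags about 1 in 20 such groups, and 6.50% of all genes with 4 values were past it. SEC24 was at -0.032 on array 2, with the others between 0.56 and 0.64. SEC21 was at 0.42 on array 1, with the others between 0.17 and 0.21. SEC14 was at 0.16 on array 4, with the others between -0.20 and -0.16.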

How the results depend on the processing

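No secretory gene passed the limma threshold in any of the 19 alternatives, and the smallest limma adjusted p was 0.14, for SEC28 without gene values whose spots lay more than 1 apart. The mean of SEC28 ran from 0.72 to 0.89 in the alternatives other than turned signs. Without median centring the median of the secretory genes was 0.052, that of the exocyst 0.12, and 2 genes had an unadjusted p under 0.05 (5.72% of all genes). That count was also 2 without spots more than 1 apart (9.71%) and with centring along the spot order (8.53%), and 0 against a fold change of 1.5 (1.31%). With the sign of arrays 2 and 4 turned, as if the ratios ran by channel, it was 7 (12.2%), SEC28 was at -0.04, the ER entry median was -0.31, the tether median was 0.20 and that of other SNAREs -0.094. The median channel difference, -0.13, was -0.41 without centring, -0.20 with scaling and -0.27 with quantile normalization. Leaving out each array in turn gave 1 to 4 genes at an unadjusted p under 0.05, exocyst medians of -0.044 to 0.12, tether medians of 0.0864 to 0.26 and COPI and Arf partner medians of -0.091 to 0.14. No paired analysis was possible because the labels form 1 group, and each ratio already sets treated against untreated cells of a divided culture. Averaging arrays 1 with 2 and 3 with 4, or 1 with 4 and 2 with 3, left 1 gene at an unadjusted p under 0.05 (9.11% and 10.7% of all genes). Signals over background were not used here, so dim spots could not be told apart.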
